A study of Homo sapiens with 15 samples.

Results

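The genes described here carry out or control fatty acid oxidation in mitochondria and peroxisomes. They are 28 named genes of that pathway, all present in the table of normalized counts, and every gene whose symbol is PEX followed by a digit, which added 16 peroxins. The set holds 44 of the 15790 genes in the table. All 44 passed the filter on low values, a normalized count of at least 10 in at least 3 libraries. The rule goes by gene names and uses no measured value. The 28 named genes were sorted by role into 3 regulators, 4 genes of entry into mitochondria, 4 acyl-CoA dehydrogenases, 6 genes of the later steps of the mitochondrial cycle, 3 genes of electron transfer and 8 genes of peroxisomal oxidation.

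RNA was sequenced from 15 human cultures in 5 groups of 3. Fibroblast monocultures held fHDF/TERT166, an immortalized line of foreskin dermal fibroblasts, seeded at 14000 cells per cm2. Co-cultures held these fibroblasts at the same density together with RPTEC/TERT1, immortalized human cells of the proximal kidney tubule, seeded at 140000 cells per cm2, and epithelial monocultures held RPTEC/TERT1 alone. Co-cultures and epithelial monocultures grew on LN/FN-silk membranes (silk below) or on LN/PC membranes. The epithelial medium, also used for co-cultures, had 5 mM glucose, 0.5% FBS and 36 ng/ml hydrocortisone, and the labels do not make clear in which medium the fibroblast monocultures were kept. All cultures were collected 14 days after seeding and 3 to 8 membranes were pooled per sample. Silk was scraped off and LN/PC was cut from its holder, and the effects of membrane and of harvest cannot be told apart. Each cell type is represented by 1 line. The titles call the fibroblast samples monocultures, whereas the protocol calls them basolateral. Nothing in the labels shows whether the replicates came from independent cultures, and the p-values cover only the scatter among these libraries, some of which may be technical.

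Totals ran from 9078771 to 12662726 normalized counts per library. Of 14 fibroblast markers, the summed level was 499376 to 569115 normalized counts in fibroblast monocultures. On silk it was 141 to 790 in co-cultures and 119 to 161 in monocultures, and on LN/PC 95346 to 172461 in co-cultures and 61.0 to 110.2 in monocultures. The median over 112 genes restricted to fibroblasts put their RNA at 0.0457 ± 0.0597% (SD, n = 3) of silk co-cultures, against 13.0 ± 2.80% of LN/PC co-cultures. In these bulk samples, fewer cells of a type and less RNA per cell cannot be told apart. Of 17 markers of proximal tubule and renal epithelium, 13 were in the table, and 10 were lower and 3 (AQP1, ANPEP and CUBN) higher in fibroblasts than in epithelial monocultures. The other 4, among them LRP2 and SLC34A1, were not analysed here. Mitochondrially encoded transcripts took 5.97 ± 0.501% of counts in co-cultures and 5.16 ± 1.25% in monocultures on silk, and 2.37 ± 0.584% in co-cultures and 2.48 ± 1.19% in monocultures on LN/PC, where LN/PC monoculture 2 stood highest at 3.80%.

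Fatty acids of most lengths are broken down in the mitochondrial matrix. They enter as acylcarnitines through CPT1A, SLC25A20 and CPT2, pass a cycle of dehydrogenation, hydration, a further dehydrogenation and thiolysis, and hand electrons through the electron transfer flavoprotein to the respiratory chain. Peroxisomes shorten very long and branched chains with oxidases that form hydrogen peroxide, which catalase removes, and peroxins import the enzymes and build the organelle. The proximal tubule depends on fatty acid oxidation for most of its ATP, and the nuclear receptor PPARA and the coactivator PPARGC1A (PGC-1α) drive many genes of the pathway.

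Promoter windows from RefSeq (GRCh38.p14), running from 250 bases before to 50 bases after an annotated start of a gene, were found for 34 of the 44 genes. The windows of ETFB, PEX11G and PEX16 lie at an inner start and do not reach the outermost start of the gene. HADHA and HADHB encode both subunits of the mitochondrial trifunctional protein and lie head to head, with 307 bases between their starts. The HADHA window (chr2:26244583-26244882, minus strand) is shown because it shares 194 bases, in capitals, with the window of HADHB (chr2:26244689-26244988, plus strand).
HADHA: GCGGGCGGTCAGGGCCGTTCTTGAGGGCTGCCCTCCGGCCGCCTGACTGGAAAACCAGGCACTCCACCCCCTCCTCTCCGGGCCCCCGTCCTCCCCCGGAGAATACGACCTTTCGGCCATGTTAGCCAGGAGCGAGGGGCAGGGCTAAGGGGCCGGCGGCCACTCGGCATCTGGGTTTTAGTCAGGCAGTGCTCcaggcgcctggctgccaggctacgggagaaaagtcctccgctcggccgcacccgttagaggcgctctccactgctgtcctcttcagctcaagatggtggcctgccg
The windows of the genes were rich in G and C, with a median of 66% and 22.5 CG dinucleotides in the 34 windows, against 58.67% and 14 in all 35116 windows. On both strands, 0 of 34 windows held the PPAR element of 2 copies of AGGTCA with 1 base between them, which 0.0228% of all windows hold. The extended element TCAAGGTCA was in 0 of 34 and 0.353% of all windows, and the hexamer AGGTCA, contained in both longer elements, was in 0 of 34 and 13.8% of all. These letters are therefore not in these windows, which says nothing of other regions. The RefSeq window of PPARGC1A lies 582828 bases from the nearest start in the GENCODE 29 basic annotation, so it is not shown.

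The ratio of the highest to the lowest of the 4 epithelial group means had a median of 1.49 over the 44 genes, and 22 genes had a ratio under 1.5. It reached at least 2 in 8 of the 28 named genes and in 0 of the 16 peroxins, whose ratios ran from 1.16 to 1.96. The largest ratios were those of ACOX2 at 4.80 and PPARGC1A at 4.59. The highest epithelial mean was in silk co-cultures for 13 genes and silk monocultures for 8, and in LN/PC co-cultures for 13 and LN/PC monocultures for 10. The lowest was in silk co-cultures for 10 and silk monocultures for 11, and in LN/PC co-cultures for 16 and LN/PC monocultures for 7. These ratios and group counts were not computed for all genes. They therefore do not show whether the peroxins or the named genes vary less or more than other genes. Summed over the 44 genes, normalized counts made up 0.194 ± 0.00453% of the library in fibroblasts, 0.282 ± 0.00529% in co-cultures and 0.297 ± 0.0108% in monocultures on silk, and 0.254 ± 0.00634% in co-cultures and 0.299 ± 0.00199% in monocultures on LN/PC (SD, n = 3). The heatmap of the genes by library shows PPARGC1A low and ACOX2 high in all 3 fibroblast libraries.

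**Figure D1:**
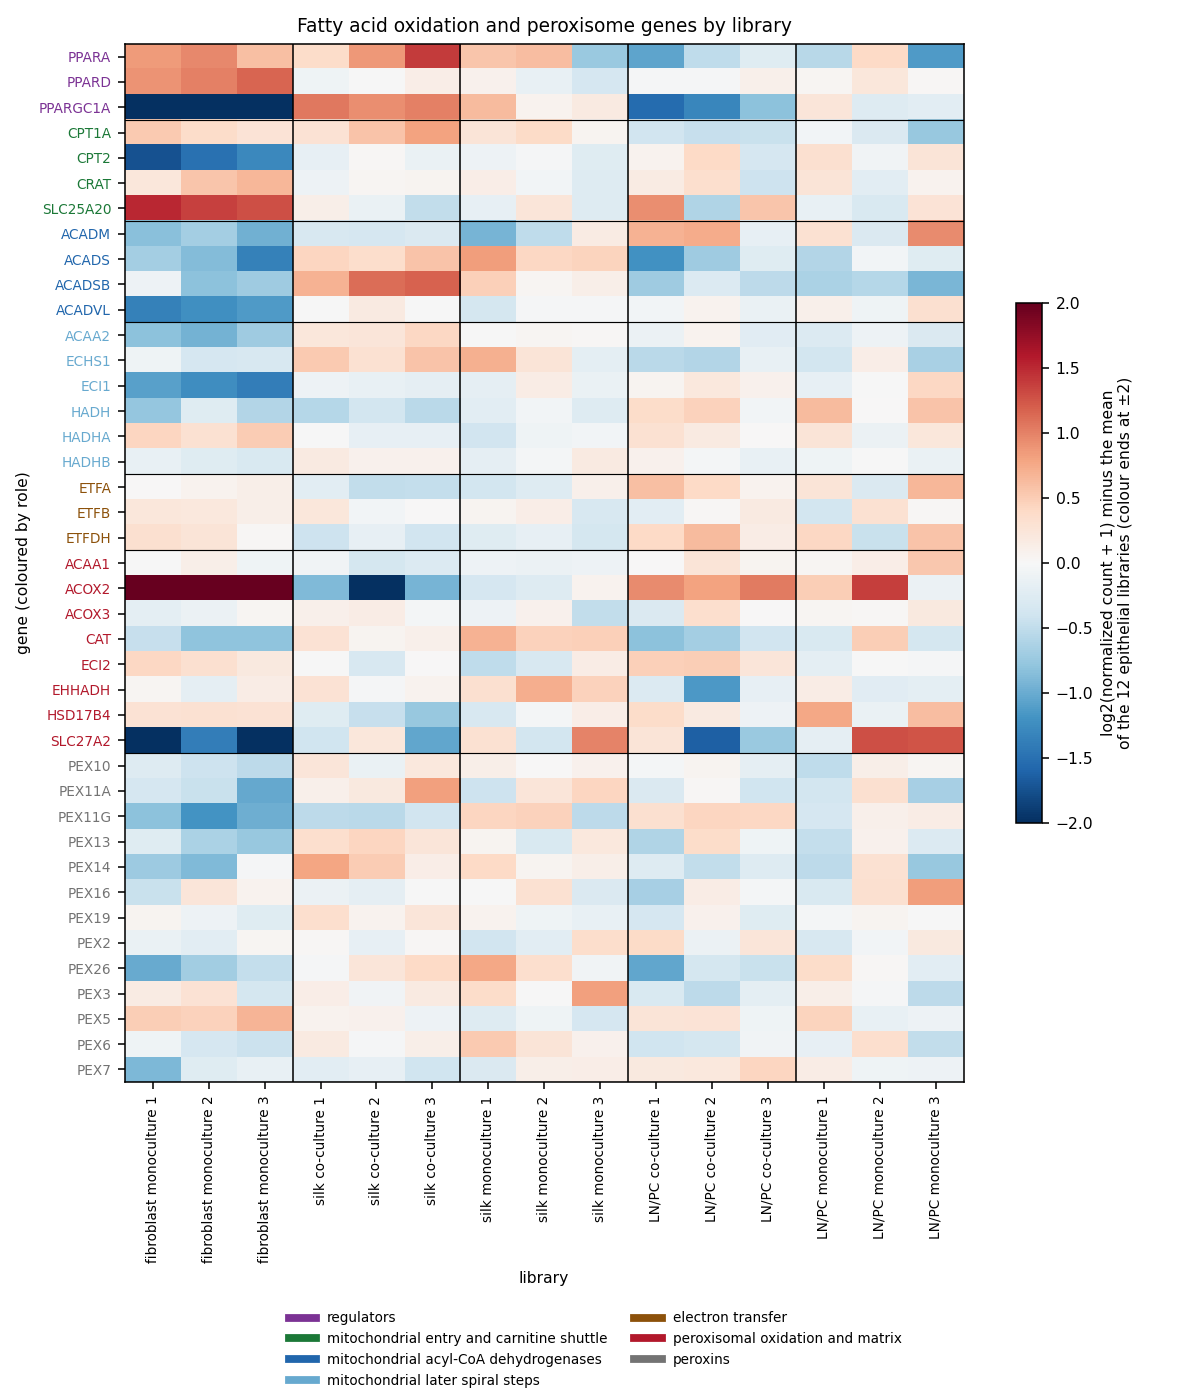
Level of 41 of the 44 genes (rows, coloured by role) in each of the 15 libraries (columns), as log2(normalized count + 1) minus the mean of the 12 epithelial libraries; red is above and blue below that mean, and the colour ends at ±2. PPARGC1A is far below the mean in the 3 fibroblast libraries and above it in the 3 silk co-cultures, and the peroxin rows are pale in most libraries.

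Membrane was compared with silk against LN/PC, once between co-cultures and once between monocultures. In co-cultures, silk had higher PPARGC1A, PPARA, CPT1A, short-chain acyl-CoA dehydrogenases and catalase, and lower ACOX2, HADH, ETFA, ETFDH and HSD17B4. By limma with Benjamini-Hochberg adjustment over all 14433 genes tested, at an adjusted p under 0.05, 17 of 44 genes were called, 10 higher and 7 lower, where 36.1% of all genes were called (18.5% higher, 17.6% lower). The share among the 44 genes, 38.6%, was thus near the background. With libraries scaled on epithelium-restricted genes, which moved the median of all genes by -0.29, 7 members were called higher and 12 lower, where 38.2% of all genes were called (1373 higher, 4146 lower). In monocultures, 2 of 44 genes were called, both higher on silk, against 11.7% of all genes (5.88% higher, 5.79% lower). The median log2 difference of the 44 genes was 0.09 in co-cultures, against 0.03 for all genes, and -0.01 in monocultures, against 0.03 for all genes. Among the 10 genes higher in silk co-cultures, 10 had a positive silk minus LN/PC difference in monocultures, which share no library with the co-cultures (0.24 to 0.92), as did 83.7% of all genes called higher. Of the 7 genes called lower, 6 had a negative difference in monocultures, as did 74.6% of all genes called lower.

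The co-culture count rested on some libraries. It was 10 without silk co-culture 3 and 10 without LN/PC co-culture 1, when 24.5% and 24.1% of all genes were called. The monoculture count was 12 without LN/PC monoculture 2, with 7 genes higher and 5 lower and 22.3% of all genes called, and 3 without LN/PC co-culture 3. It was 1, ACADSB, without silk monoculture 1, 2 or 3, silk co-culture 1, 2 or 3, or LN/PC monoculture 3. The fibroblast marker sums given above moved with the membrane in co-cultures, with all 14 markers lower on silk, and their part in the co-culture differences was not tested. Mitochondrial transcript shares moved with the membrane in both culture types, and their part was not tested either.

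**Figure D2:**
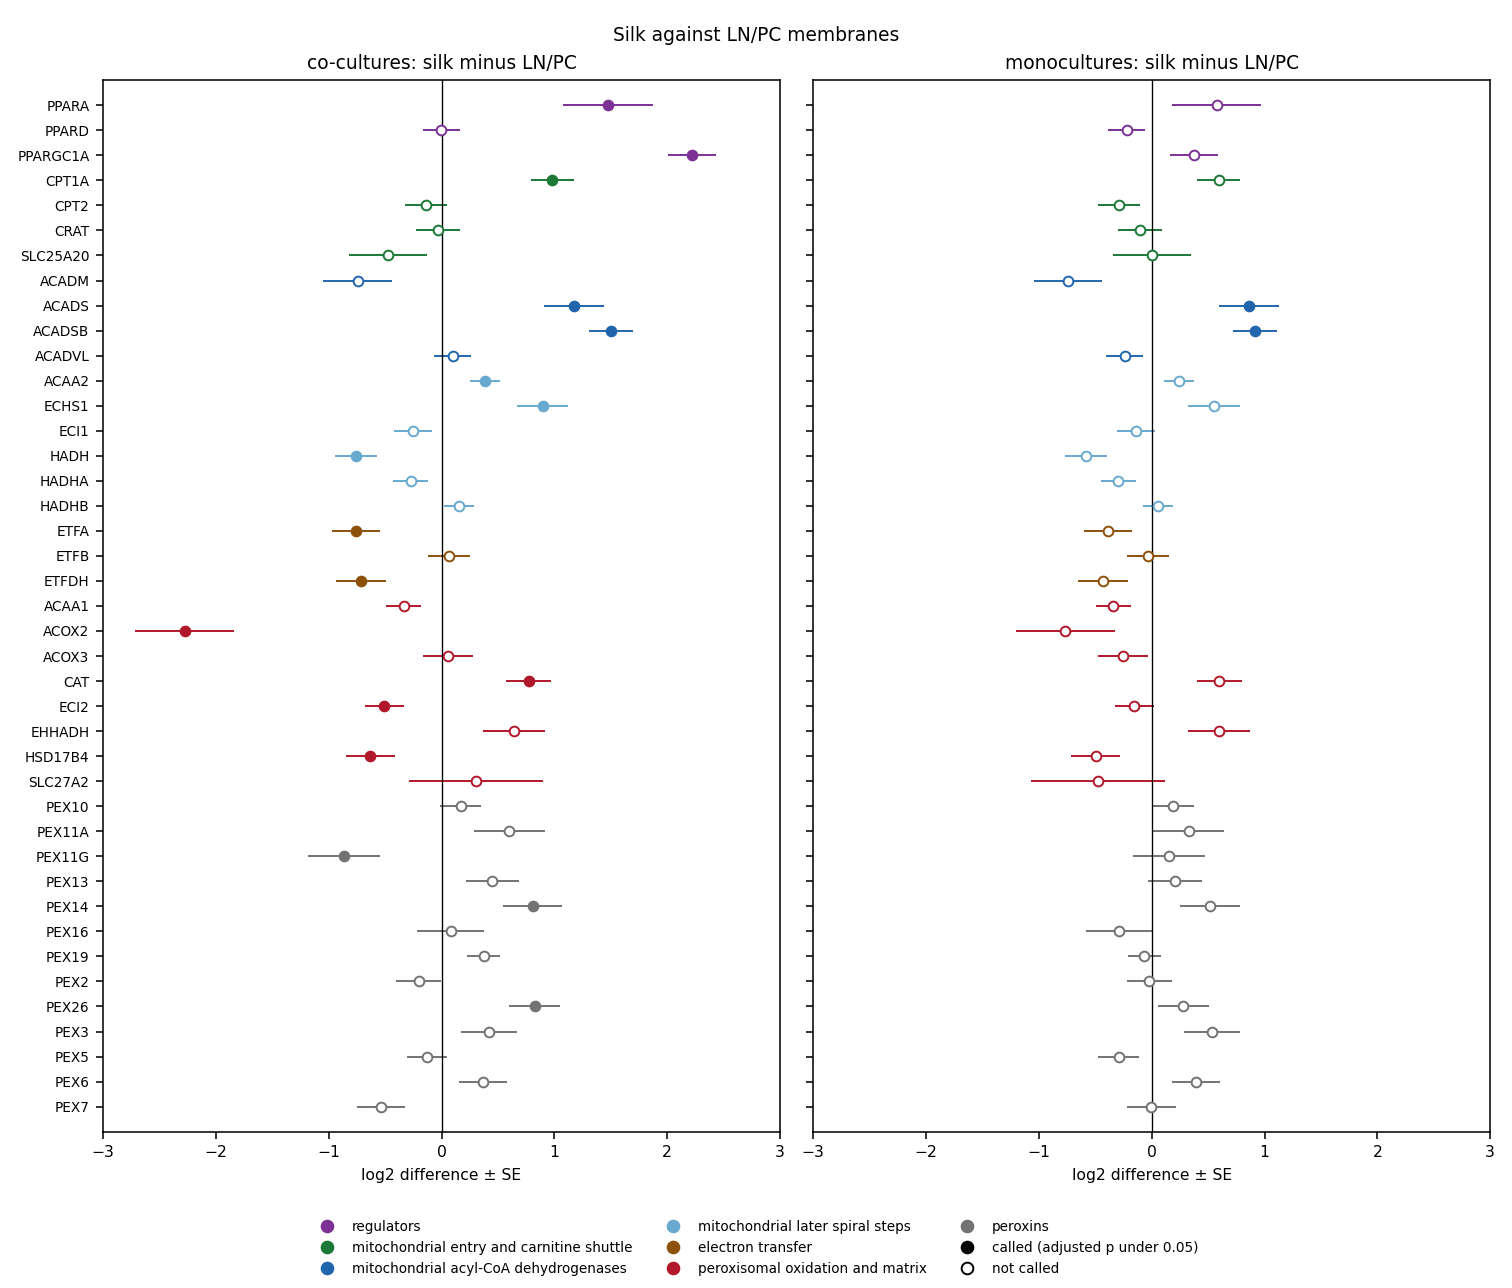
Log2 difference of silk minus LN/PC for 41 of the 44 genes, in co-cultures (left) and in monocultures (right); points are differences with their SE from limma, coloured by role, filled where the adjusted p was under 0.05. Of the filled points, 17 are in co-cultures and 2, ACADS and ACADSB, in monocultures.

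The regulators PPARGC1A and PPARA were higher on silk in co-cultures, and the other regulator, PPARD, was not called. PPARGC1A, the coactivator, had 722, 662 and 697 normalized counts in silk co-cultures, against 118, 139.9 and 195 in LN/PC co-cultures. All silk libraries lay more than 3 times above every LN/PC library. The log2 difference was 2.22 ± 0.21 (SE), a 4.66-fold higher level (limma adjusted p = 1.1e-06). In monocultures PPARGC1A had 538, 361 and 391 normalized counts on silk, against 407, 289 and 297 on LN/PC, and these groups overlapped (log2 difference 0.37 ± 0.21, limma adjusted p = 0.253).

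PPARA, the receptor that fatty acids bind, had 254, 358 and 518 normalized counts in silk co-cultures, against 94, 138 and 166 in LN/PC co-cultures. Each silk co-culture exceeded each LN/PC co-culture, with wide spread on silk (log2 difference 1.48 ± 0.40, limma adjusted p = 0.00924). The call was lost without silk co-culture 3 (adjusted p = 0.0555). In monocultures PPARA had 287, 302 and 117 on silk, against 132, 258 and 89.2 on LN/PC, where the groups overlapped (log2 difference 0.58 ± 0.40, limma adjusted p = 0.356). PPARD, a receptor related to PPARA, averaged 308 ± 23.7 in co-cultures on silk, against 308 ± 15.9 on LN/PC (SD, n = 3 each), with an interval of the log2 difference of -0.35 to 0.34 (95%).

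**Figure D3:**
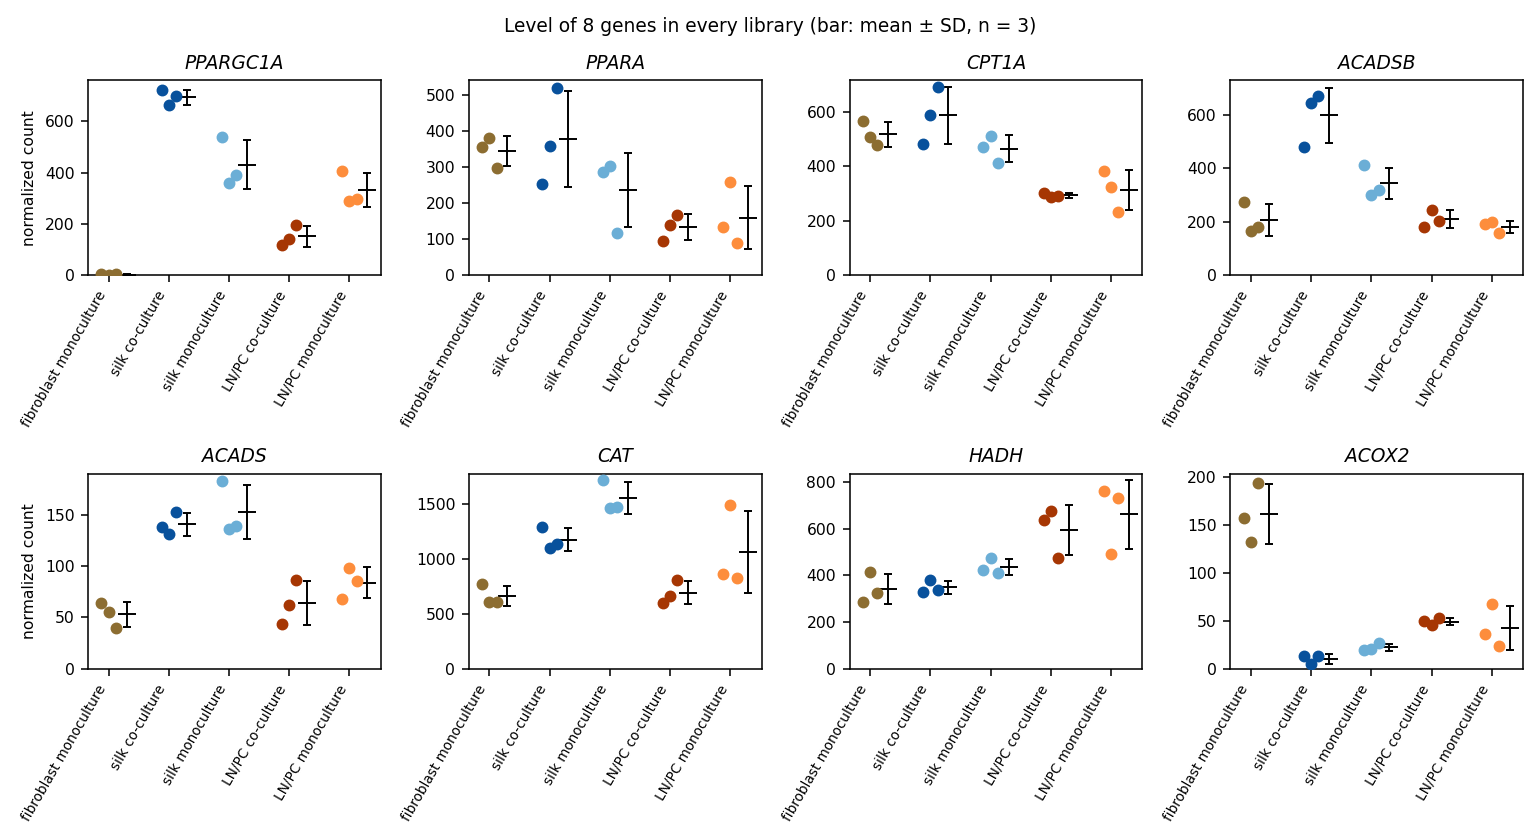
Normalized counts of 8 genes in every library, with 1 point per library and a bar for the mean ± SD of the 3 libraries of each group; the vertical axes are linear and start at 0. In PPARGC1A the silk co-cultures (662 to 722) stand highest and the fibroblasts (0 to 3.83) lowest, and in ACADSB both silk groups stand above both LN/PC groups.

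Among the 4 genes of entry into mitochondria, CPT1A alone was called between membranes, in co-cultures, where 36.1% of all genes were called. CPT1A, which forms acylcarnitines at the outer membrane and is the controlled step of the pathway, had 482, 588 and 693 normalized counts in silk co-cultures, against 303, 288 and 289.8 in LN/PC co-cultures. The groups did not overlap, and silk was 1.98-fold higher (log2 difference 0.98 ± 0.19, limma adjusted p = 0.00102). In monocultures CPT1A had 471, 512 and 411 on silk, against 381, 324 and 233 on LN/PC. Those groups did not overlap either, but the difference of 0.59 ± 0.19 missed the threshold (limma adjusted p = 0.0544), and it passed without LN/PC monoculture 2 (adjusted p = 0.0406) and with libraries scaled to a common upper quartile (adjusted p = 0.0338). The inner-membrane partner CPT2, the carrier SLC25A20 and the acetyltransferase CRAT had log2 differences from -0.47 to -0.03 in co-cultures and from -0.29 to 0.00 in monocultures, and none was called.

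Of the acyl-CoA dehydrogenases, which take the first step of each cycle, 2 of 4 were called between co-cultures and the same 2 between monocultures. Of all genes, 36.1% were called between co-cultures and 11.7% between monocultures. ACADSB, which acts on short branched chains such as those from isoleucine, was the only member called in 3 of the 4 pairwise comparisons of epithelial groups. It had 480.1, 644 and 672 normalized counts in silk co-cultures, against 181, 245 and 204 in LN/PC co-cultures, and 411, 302 and 321 in silk monocultures, against 190.2, 198 and 156 in LN/PC monocultures. Every silk library exceeded every LN/PC library in both culture types. The log2 difference was 1.5 ± 0.19 in co-cultures (limma adjusted p = 2.61e-05) and 0.92 ± 0.19 in monocultures (limma adjusted p = 0.0075).

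ACADS, for short straight chains, had 138, 131 and 153 normalized counts in silk co-cultures, against 43.4, 62.1 and 86.1 in LN/PC co-cultures, and 183, 136 and 139 in silk monocultures, against 67.9, 97.8 and 85.7 in LN/PC monocultures. The groups did not overlap in either culture type. Its log2 difference was 1.18 ± 0.27 in co-cultures (limma adjusted p = 0.00305) and 0.86 ± 0.27 in monocultures (limma adjusted p = 0.0461). The monoculture call was lost when any 1 of 8 libraries was left out, namely silk monoculture 1, 2 or 3, silk co-culture 1, 2 or 3, or LN/PC monoculture 1 or 3 (adjusted p up to 0.161). It was also lost with no filter on low values (0.0549), with epithelium-restricted scaling (0.0555) and in a fit of the compared libraries alone (0.0707).

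ACADM, for medium chains, had 908, 906 and 929 normalized counts in silk co-cultures, against 1851, 1911 and 1015 in LN/PC co-cultures. All 3 silk values were below the 3 LN/PC values, but LN/PC co-culture 3 lay close to them, and the log2 difference of -0.74 ± 0.30 missed the threshold (limma adjusted p = 0.0651). ACADM was called lower on silk there with libraries scaled on epithelium-restricted genes (log2 difference -1.04, limma adjusted p = 0.0224). In monocultures ACADM had 596, 797 and 1279 on silk, against 1399.5, 931 and 2188 on LN/PC, with overlap (log2 difference -0.74 ± 0.30, limma adjusted p = 0.118); it was called without LN/PC monoculture 2 (adjusted p = 0.0172). ACADVL, for very long chains, had log2 differences of 0.10 ± 0.16 in co-cultures and -0.24 ± 0.16 in monocultures and was not called.

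Of the 6 genes of the later steps of the mitochondrial cycle, 2 were higher and 1 lower in silk co-cultures. Of all genes, 18.5% were called higher there and 17.6% lower. ECHS1, the hydratase of short chains, had 770.0, 659 and 799 normalized counts in silk co-cultures, against 367, 354 and 481 in LN/PC co-cultures, without overlap (log2 difference 0.90 ± 0.23, limma adjusted p = 0.00654). HADH, the hydroxyacyl-CoA dehydrogenase of the next step, had 329, 380.1 and 336 in silk co-cultures, against 636, 678 and 474 in LN/PC co-cultures, again without overlap and lower on silk (log2 difference -0.76 ± 0.19, limma adjusted p = 0.00537). In monocultures HADH had 422, 475 and 409.7 on silk, against 762, 492 and 731 on LN/PC, and although all silk libraries were lower, the difference of -0.58 ± 0.19 missed the threshold (limma adjusted p = 0.054). ACAA2, the mitochondrial thiolase, was higher by 0.39 ± 0.13 in silk co-cultures (limma adjusted p = 0.0318). The ACAA2 call was lost without silk co-culture 3 or LN/PC co-culture 1, and with libraries scaled on epithelium-restricted genes.

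HADHA had 3348, 2992 and 2992 normalized counts in silk co-cultures, against 4126, 3797 and 3374 in LN/PC co-cultures, a log2 difference of -0.27 ± 0.15 that was not called (limma adjusted p = 0.177). In monocultures it had 2582, 3149 and 3231 on silk, against 4021, 3096 and 3913 on LN/PC, with overlap (log2 difference -0.30 ± 0.15). HADHB, which shares the promoter sequence printed above, had log2 differences of 0.15 ± 0.13 in co-cultures and 0.06 ± 0.13 in monocultures, and ECI1, an isomerase for unsaturated chains, of -0.26 ± 0.17 and -0.14 ± 0.17. None of the 3 genes was called between membranes with these values. HADHA and ECI1 were called lower in silk co-cultures with libraries scaled on epithelium-restricted genes. Their log2 differences were then -0.56 and -0.55 (limma adjusted p = 0.0269 and 0.028).

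Electron transfer genes were lower on silk for 2 of 3 in co-cultures, where 17.6% of all genes were called lower. ETFA, the alpha subunit of the electron transfer flavoprotein, had 1129, 929 and 941 normalized counts in silk co-cultures, against 1990.1, 1737 and 1380.0 in LN/PC co-cultures (log2 difference -0.76 ± 0.21, limma adjusted p = 0.0118). ETFDH, which passes the electrons to ubiquinone, had 288, 345 and 295 in silk co-cultures, against 511, 598 and 426 in LN/PC co-cultures (log2 difference -0.71 ± 0.22, limma adjusted p = 0.0205). Neither gene's groups overlapped. The ETFA call was lost without LN/PC co-culture 1 (adjusted p = 0.0607), and the ETFDH call without silk co-culture 1 or 3 or LN/PC co-culture 1 or 2 (adjusted p up to 0.0855). The beta subunit ETFB had log2 differences of 0.07 ± 0.19 in co-cultures and -0.03 ± 0.19 in monocultures and was not called.

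Of the 8 peroxisomal genes, CAT was higher and ACOX2, HSD17B4 and ECI2 were lower in silk co-cultures, where 36.1% of all genes were called. CAT, catalase, had 1289, 1094 and 1134 normalized counts in silk co-cultures, against 601, 661 and 808 in LN/PC co-cultures. The groups did not overlap (log2 difference 0.77 ± 0.20, limma adjusted p = 0.00685), and the call was lost when libraries were scaled on epithelium-restricted genes (log2 difference 0.48, adjusted p = 0.0617). In monocultures CAT had 1714, 1456 and 1471 on silk, against 857, 1487 and 825 on LN/PC, where only LN/PC monoculture 2 reached the silk range (log2 difference 0.60 ± 0.20, limma adjusted p = 0.0581). Without that library the difference was 0.87 (adjusted p = 0.0015).

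ACOX2, an oxidase of branched chains and bile acid intermediates, had 13.3, 4.57 and 12.8 normalized counts in silk co-cultures, against 49.3, 45 and 52.8 in LN/PC co-cultures. All 3 silk values were far below the LN/PC values, which lay close together (log2 difference -2.28 ± 0.44, limma adjusted p = 0.000951). Fibroblasts had 157, 131 and 194, more than any epithelial library. In monocultures ACOX2 had 19.7, 20.8 and 26.4 on silk, against 35.9, 67.6 and 23.1 on LN/PC, with overlap (log2 difference -0.77 ± 0.44, limma adjusted p = 0.26).

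HSD17B4, the D-bifunctional protein, had 1447, 1236 and 1013 normalized counts in silk co-cultures, against 2199, 1945 and 1584 in LN/PC co-cultures (log2 difference -0.63 ± 0.22, limma adjusted p = 0.0319). ECI2, an isomerase, had 724, 582 and 728 in silk co-cultures, against 1008, 1016 and 858 in LN/PC co-cultures (log2 difference -0.51 ± 0.17, limma adjusted p = 0.0311). Both genes had no overlap, and both calls were lost without silk co-culture 2 or 3 or LN/PC co-culture 1 or 2 (adjusted p up to 0.143 for HSD17B4 and 0.136 for ECI2). EHHADH, the L-bifunctional protein, had 107, 86 and 92.1 in silk co-cultures, against 72.4, 39 and 77.5 in LN/PC co-cultures, and 109.7, 144 and 121 in silk monocultures, against 96.9, 74.1 and 76.4 in LN/PC monocultures. Silk libraries were higher than LN/PC libraries in each culture type, yet neither difference passed (log2 0.64 ± 0.28, limma adjusted p = 0.0809, and 0.60 ± 0.28, limma adjusted p = 0.167).

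SLC27A2, which activates very long chains, was low throughout, with 7.34, 11.8 and 4.36 normalized counts in silk co-cultures, against 12.1, 2.53 and 5.58 in LN/PC co-cultures. In monocultures it had 12.6, 7.47 and 20.9 on silk, against 8.7, 25.7 and 25.2 on LN/PC. The groups overlapped in both culture types (log2 difference 0.30 ± 0.59 and -0.48 ± 0.59), and the 95% intervals ran from -0.95 to 1.56 and from -1.73 to 0.78. The peroxisomal thiolase ACAA1 (log2 -0.34 ± 0.15 in co-cultures) and the oxidase ACOX3 (0.06 ± 0.22) were not called. With libraries scaled on epithelium-restricted genes, ACAA1 was called lower in silk co-cultures (log2 difference -0.63, limma adjusted p = 0.00894).

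Of the 16 peroxins, 3 were called between co-cultures (18.8%, where 36.1% of all genes were called) and 0 between monocultures (where 11.7% were). In monocultures 2 peroxins had an unadjusted p under 0.05. PEX26, which anchors the receptor export machinery at the membrane, had 559, 675 and 754 normalized counts in silk co-cultures, against 276, 444 and 416 in LN/PC co-cultures, and was higher on silk (log2 difference 0.82 ± 0.23, limma adjusted p = 0.0108). The PEX26 call was lost without silk co-culture 3 or LN/PC co-culture 1. PEX14, of the docking complex, was higher by 0.81 ± 0.26 (limma adjusted p = 0.0254). The PEX14 call was lost with libraries scaled on epithelium-restricted genes. PEX11G, of the division factors, had 28.2, 28.1 and 31.2 in silk co-cultures, against 51.2, 55.7 and 54.8 in LN/PC co-cultures, and was lower on silk (log2 difference -0.86 ± 0.32, limma adjusted p = 0.0446). In monocultures PEX11G had 55.7, 57.1 and 28.2 on silk, against 32.2, 44.2 and 45.8 on LN/PC, with overlap. Its log2 difference there, 0.15, was the only positive one among the genes called lower in silk co-cultures. The PEX11G call was lost without any 1 of 7 libraries, the 3 silk co-cultures, the 3 LN/PC co-cultures or silk monoculture 2 (adjusted p up to 0.107), and with no filter on low values (0.051) or upper quartile scaling (0.0513).

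PEX11A, the division factor that PPARA ligands induce in rodent liver, had 88.7, 95.2 and 147 normalized counts in silk co-cultures, against 67.4, 83.8 and 62.4 in LN/PC co-cultures. The groups did not overlap, but silk co-culture 3 stood apart from the other 2 silk libraries (log2 difference 0.60 ± 0.31, limma adjusted p = 0.147). In monocultures PEX11A had 62.1, 98.1 and 112 on silk, against 64.1, 103 and 51.6 on LN/PC, with overlap (log2 difference 0.33 ± 0.31). The median of the 16 peroxins was 0.21 in co-cultures and 0.20 in monocultures, against 0.03 for all genes in each. The import receptors PEX5 and PEX7 had differences of -0.13 ± 0.18 and -0.53 ± 0.21 in co-cultures, and the membrane assembly factors PEX3, PEX16 and PEX19 of 0.42, 0.08 and 0.37. Neither these nor the ubiquitin ligase subunits PEX2 and PEX10 (-0.20 and 0.17) were called. With libraries scaled on epithelium-restricted genes, PEX7 was called lower in silk co-cultures (log2 difference -0.83, limma adjusted p = 0.0113).

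Co-culture was compared with monoculture on each membrane. On either membrane 1 of the 44 genes was called. On silk it was ACADSB, higher in co-culture, where 3.78% of all genes were called (2.91% higher, 0.866% lower). On LN/PC it was PPARGC1A, lower in co-culture, where 12.5% of all genes were called (7.8% higher, 4.72% lower). At an unadjusted p under 0.05 the counts were 3 and 5 of 44. The silk count was 2 without silk monoculture 1 or LN/PC co-culture 3 and 0 without silk monoculture 2 or 3 or silk co-culture 2 or 3, and the LN/PC count was 2 without silk monoculture 1. Median log2 differences of the 44 genes were 0.04 on silk and -0.01 on LN/PC, against 0.00 and -0.04 for all genes.

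ACADSB had 480.1, 644 and 672 normalized counts in silk co-cultures, against 411, 302 and 321 in silk monocultures. All co-cultures were higher (log2 difference 0.79 ± 0.19, limma adjusted p = 0.0284). The call was lost without silk monoculture 2 or 3 or silk co-culture 2 or 3 (adjusted p up to 0.183). On LN/PC it had 181, 245 and 204 in co-cultures, against 190.2, 198 and 156 in monocultures, with overlap (log2 difference 0.21 ± 0.19, limma adjusted p = 0.53).

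PPARGC1A differed between the membranes in its response to co-culture. On silk it had 722, 662 and 697 normalized counts in co-cultures, against 538, 361 and 391 in monocultures, and the groups did not overlap. That difference of 0.71 ± 0.21 missed the threshold in the fit of 12 libraries (limma adjusted p = 0.0744) and passed it in a fit of the 6 libraries compared (adjusted p = 0.0151). On LN/PC it had 118, 139.9 and 195 in co-cultures, against 407, 289 and 297 in monocultures, and every co-culture was lower (log2 difference -1.14 ± 0.21, a 2.2-fold lower level, limma adjusted p = 0.00134). The interaction, the co-culture difference on silk minus that on LN/PC, was 1.85 ± 0.30 for PPARGC1A (limma adjusted p = 0.000712). PPARGC1A was the only one of the 44 genes with a called interaction, where 7.73% of all genes had one (3.15% positive, 4.59% negative), and 4 of 44 had an unadjusted p under 0.05.

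Fibroblast RNA has almost no PPARGC1A, so its level in LN/PC co-cultures was also set against in-silico mixtures of 13.0% mean fibroblast profile with each LN/PC monoculture library. The mixtures held 354, 252 and 258 normalized counts of PPARGC1A, and all 3 LN/PC co-cultures lay below them (log2 difference -0.94 ± 0.23, limma adjusted p = 0.0444). Each mixture was computed with the same mean fibroblast profile and mean share, so the p-value leaves out the spread of both. PPARGC1A was the only member called against the mixtures, where 2.73% of all genes were called (1.31% higher, 1.41% lower). The call was lost with a share of 20.9% from summed genes, and without LN/PC monoculture 1 or 3 or LN/PC co-culture 1 or 2. With libraries scaled on epithelium-restricted genes, the co-culture difference on LN/PC was -0.75 (adjusted p = 0.018). Of the 13 markers listed for renal epithelium, 12 had a negative difference against the mixtures (median -0.32, 2 called lower). Against LN/PC monocultures 11 of 13 did (median -0.48, 4 called lower and 2 higher). In this list AQP1, ANPEP and CUBN were higher in fibroblasts than in epithelial monocultures, and the other 10 were lower. AQP1 averaged 121 in LN/PC co-cultures, 10.3 in LN/PC monocultures and 6709 in fibroblasts. The counts of this list are therefore not of epithelial RNA alone. The 14 fibroblast markers had a median of 0.96 against the mixtures, with 2 called higher. The part of either marker list in the PPARGC1A difference was not tested.

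No other member passed the threshold on either membrane. PEX26 averaged 379 ± 90.1 in LN/PC co-cultures and 603 ± 123 in LN/PC monocultures (SD, n = 3 each; log2 difference -0.68 ± 0.23, limma adjusted p = 0.0624). CAT had 601, 661 and 808 in LN/PC co-cultures, against 857, 1487 and 825 in LN/PC monocultures, and all co-cultures were lower (log2 difference -0.57 ± 0.20, limma adjusted p = 0.0697). Both were called without LN/PC monoculture 3 (adjusted p = 0.0386 and 0.0302), and without silk monoculture 3 the called genes were PPARGC1A, PEX26 and ECI2. On silk CAT also had lower values in co-cultures, at 1289, 1094 and 1134, against 1714, 1456 and 1471 in silk monocultures (log2 difference -0.40 ± 0.20, limma adjusted p = 0.321). CPT1A had log2 differences of 0.33 ± 0.19 on silk and -0.06 ± 0.19 on LN/PC, and PPARA of 0.74 ± 0.40 and -0.17 ± 0.40, none of them called. With libraries scaled on epithelium-restricted genes, which moves the median of all genes by 0.39 on LN/PC, 5 members were called there, with ACAA2, ACADSB, ECI2 and PEX7 higher and PPARGC1A lower, where 23.1% of all genes were called.

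**Figure D4:**
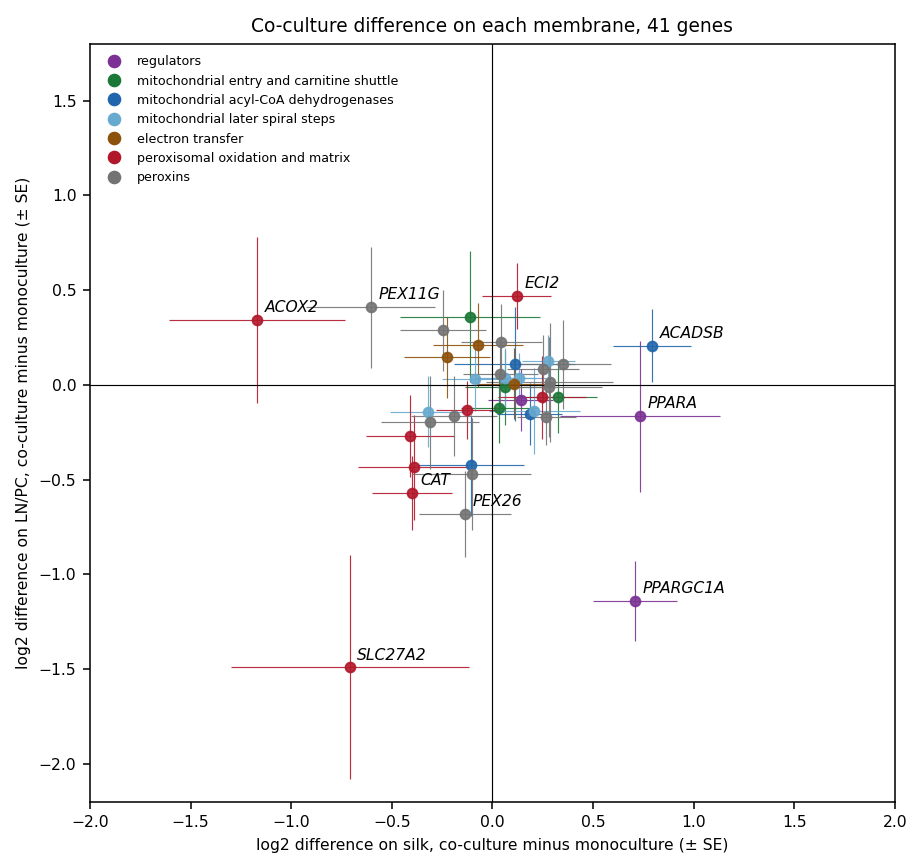
Log2 difference of co-culture minus monoculture on silk (horizontal) and on LN/PC (vertical) for 41 of the 44 genes, with SE from limma as bars and colour by role. Most genes lie near 0 on both axes, PPARGC1A lies at 0.71 and -1.14, and ACADSB at 0.79 and 0.21.

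The fibroblasts were compared with the epithelial monocultures to show how the 2 cell types differ in these genes. Fibroblasts had almost no PPARGC1A, lower CPT2, ACADVL, ACADS, ECI1 and CAT, and higher ACOX2, SLC25A20, PPARD and PPARA. Of the 44 genes, 21 were called, 9 higher and 12 lower, where 58.3% of 14502 genes were called (28% higher, 30.3% lower). Of the 28 named genes 18 were called and of the 16 peroxins 3. The median log2 difference of the 44 genes was -0.21, against -0.02 for all genes.

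**Figure D5:**
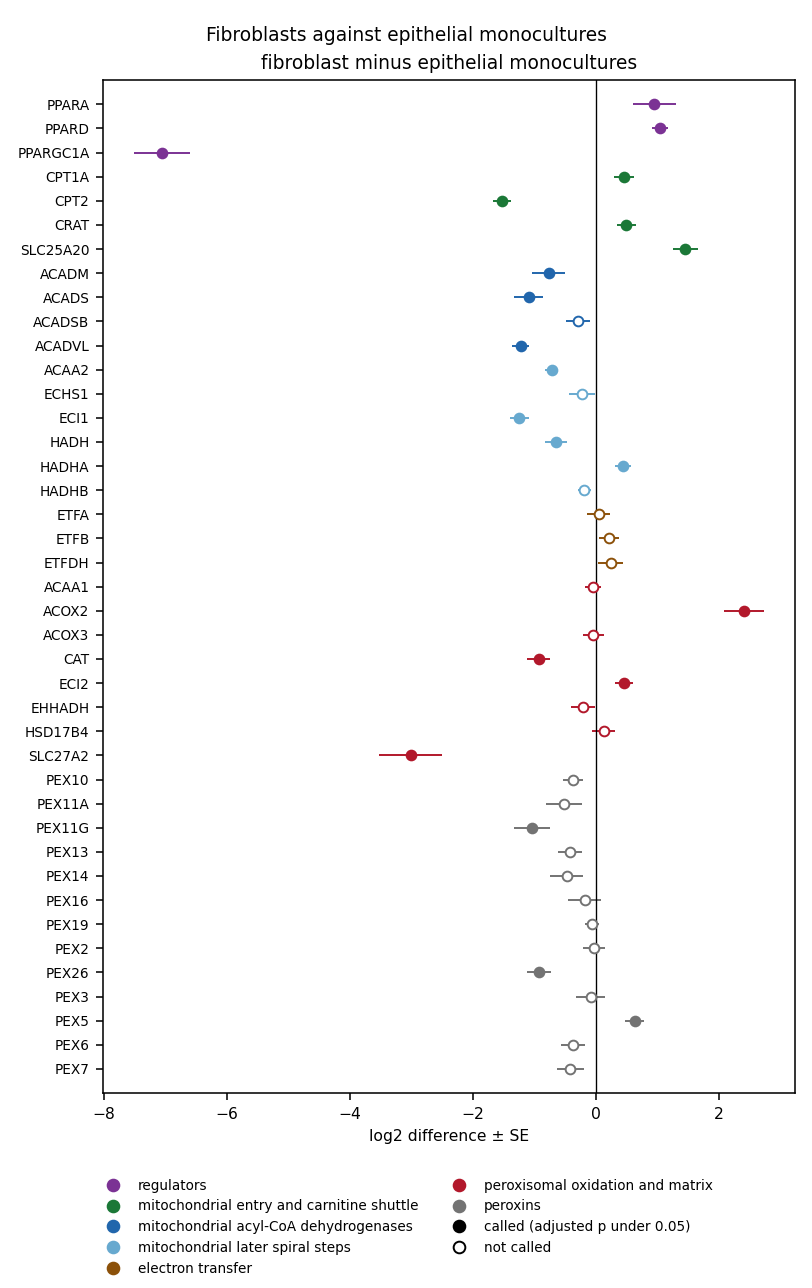
Log2 difference of fibroblast monocultures minus the mean of the silk and LN/PC monocultures for 41 of the 44 genes; points are differences with their SE from limma, coloured by role and filled where the adjusted p was under 0.05. PPARGC1A lies at -7.05 and ACOX2 at 2.40, and 10 of the 13 peroxins shown are open points.

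PPARGC1A had 3.57, 0 and 3.83 normalized counts in fibroblasts, against 538, 361 and 391 in monocultures on silk and 407, 289 and 297 on LN/PC. Fibroblasts were near 0 and every epithelial monoculture was at 289 or more (log2 difference -7.05 ± 0.45, limma adjusted p = 8.08e-08). PPARD had 566, 611 and 686 in fibroblasts, against 325, 275 and 242 in monocultures on silk and 314, 356 and 308 on LN/PC, higher in all 3 fibroblast libraries (log2 difference 1.04 ± 0.14, limma adjusted p = 4.79e-05). PPARA had 354, 381 and 298 in fibroblasts, against 287, 302 and 117 in monocultures on silk and 132, 258 and 89.2 on LN/PC, with overlap with silk monocultures (log2 difference 0.95 ± 0.36, limma adjusted p = 0.0395). That call was lost without any 1 of 5 libraries, silk monoculture 3, LN/PC monoculture 1 or 3 or fibroblast monoculture 1 or 2 (adjusted p up to 0.0833), and with upper quartile scaling (0.0653).

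All 4 genes of entry into mitochondria were called, where 58.3% of all genes were. SLC25A20 had 225, 204 and 193 normalized counts in fibroblasts, against 70.1, 92.6 and 65.5 in monocultures on silk and 70.4, 63.4 and 95.1 on LN/PC (log2 difference 1.45 ± 0.21, limma adjusted p = 8.86e-05). CPT2 was lower, with 111, 131 and 151 in fibroblasts, against 347, 364 and 315 in monocultures on silk and 463, 354 and 442 on LN/PC (log2 difference -1.53 ± 0.15, limma adjusted p = 4.99e-06). Neither gene's groups overlapped. CPT1A had 565, 507 and 478 in fibroblasts, against 471, 512 and 411 in monocultures on silk and 381, 324 and 233 on LN/PC, where fibroblasts overlapped with silk (log2 difference 0.45 ± 0.16, limma adjusted p = 0.0338). CRAT averaged 571 ± 87.6 in fibroblasts, 391 ± 53.2 in monocultures on silk and 421 ± 67.9 on LN/PC (log2 difference 0.49 ± 0.16, limma adjusted p = 0.0184). The CPT1A call was lost without silk monoculture 3 or any 1 fibroblast library (adjusted p up to 0.132) and with upper quartile scaling (0.0913), and the CRAT call without fibroblast monoculture 2 or 3 (up to 0.102).

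In the mitochondrial cycle, 3 of 4 dehydrogenases were lower in fibroblasts, where 30.3% of all genes were called lower. ACADVL had 2385, 2606 and 2769.7 normalized counts in fibroblasts, against 4784, 6025 and 5996 in monocultures on silk and 6555, 5732 and 7597 on LN/PC (log2 difference -1.23 ± 0.14, limma adjusted p = 1.21e-05). ACADS had 63.6, 55.7 and 39.2 in fibroblasts, below all 6 epithelial monocultures (log2 difference -1.10 ± 0.23, limma adjusted p = 0.0016). ACADM had 635, 713 and 583 in fibroblasts, overlapping with the epithelial monocultures, of which the lowest, silk monoculture 1, had 596 (log2 difference -0.77 ± 0.27, limma adjusted p = 0.0296). The ACADM call was lost without silk monoculture 3 or fibroblast monoculture 1 or 3 (adjusted p up to 0.0699). ACADSB, which was called between membranes, had 274, 166 and 179 in fibroblasts and was not called (log2 difference -0.30 ± 0.19, limma adjusted p = 0.204).

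ECI1 had 204, 184 and 166 normalized counts in fibroblasts, against 384, 479 and 396 in monocultures on silk and 389, 431 and 581 on LN/PC, without overlap (log2 difference -1.25 ± 0.16, limma adjusted p = 3.9e-05). ACAA2 and HADH were also lower (-0.73 ± 0.11 and -0.65 ± 0.17). HADHA had 4537, 4125 and 4780.2 in fibroblasts, above all epithelial monocultures, which ran from 2582 to 4021 (log2 difference 0.44 ± 0.13, limma adjusted p = 0.0144), and the call was lost without fibroblast monoculture 1 or 3 (adjusted p up to 0.0794). Its partner HADHB averaged 1409.8 ± 77 in fibroblasts, 1648 ± 202 in monocultures on silk and 1578 ± 65.9 on LN/PC and was not called (log2 difference -0.19 ± 0.11, limma adjusted p = 0.159). None of the 3 electron transfer genes was called, with differences of 0.04 to 0.23.

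ACOX2 had 157, 131 and 194 normalized counts in fibroblasts, against 19.7, 20.8 and 26.4 in monocultures on silk and 35.9, 67.6 and 23.1 on LN/PC, a 5.29-fold higher level (log2 difference 2.40 ± 0.32, limma adjusted p = 5.33e-05). SLC27A2 had 0.873, 3.2 and 0 in fibroblasts, against 12.6, 7.47 and 20.9 in monocultures on silk and 8.7, 25.7 and 25.2 on LN/PC (log2 difference -3.01 ± 0.51, limma adjusted p = 0.000369). CAT had 768, 607 and 607 in fibroblasts, below every epithelial monoculture (log2 difference -0.93 ± 0.19, limma adjusted p = 0.00112). ECI2 was higher in fibroblasts by 0.46 ± 0.15, while EHHADH, with 89.4, 76.7 and 96.3 in fibroblasts, was not called (log2 difference -0.21 ± 0.20). HSD17B4, ACAA1 and ACOX3 had differences of 0.12, -0.06 and -0.04 and were not called.

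Among peroxins, PEX5, the receptor for most matrix enzymes, was higher in fibroblasts, with 593, 578 and 674 normalized counts, against 351, 396 and 333 in monocultures on silk and 573, 379 and 394 on LN/PC (log2 difference 0.62 ± 0.15, limma adjusted p = 0.00436). PEX11G and PEX26 were lower (-1.05 ± 0.29 and -0.93 ± 0.20). PEX11A had 65.3, 60.5 and 40.1 in fibroblasts and was not called (log2 difference -0.53 ± 0.30, limma adjusted p = 0.149). The other 12 peroxins were not called, and their differences with these 4 ran from -1.05 to 0.62.

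The wider pathway was read from 5 further lists, described by their counts. Between co-cultures, the list of fatty acid activation and uptake (16 of 19 genes in the table) had 4 genes higher and 5 lower on silk, 56.2% of those tested, with a median of -0.41. Of all genes 36.1% were called there, with a median of 0.03. ACSL1, a long-chain acyl-CoA synthetase, had 9562, 9627 and 11335 normalized counts in silk co-cultures, against 2936, 3132 and 2218 in LN/PC co-cultures (log2 difference 1.89 ± 0.23, limma adjusted p = 1.3e-05), and no library of one group reached the other. ACSL4, another such synthetase, went the other way without overlap. It had 10397, 10314 and 9798 in silk co-cultures, against 25034, 33593 and 19401 in LN/PC co-cultures. FABP3, a fatty acid binding protein, was lower on silk at -3.05 ± 0.51, with 815 to 1065 normalized counts in fibroblasts. Other mitochondrial oxidation (21 of 22) had 2 higher and 5 lower (33.3%) with a median of -0.32, among them the dienoyl-CoA reductase DECR1 (-0.68 ± 0.15). Other peroxisomal genes (35 of 40) had 3 higher and 7 lower (28.6%) with a median of -0.25. Among these, PHYH, which starts phytanic acid breakdown, was higher on silk (0.56 ± 0.19) and its downstream lyase HACL1 lower (-0.96 ± 0.20).

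Of the 8 of 16 genes of the list of PPAR targets and lipid droplets in the table, 3 were higher and 3 lower in silk co-cultures (75%, where 36.1% of all genes were called), with a median of 0.55. PLIN2, the coat protein of lipid droplets, had 3.89, 5.63 and 3.9 normalized counts in silk co-cultures, against 142, 108 and 198 in LN/PC co-cultures, and 680 to 925 in fibroblasts (log2 difference -4.75 ± 0.46, limma adjusted p = 1.56e-06). Other regulators (17 of 20) had 5 higher and 2 lower (41.2%, near the share of all genes), with a median of 0.23. PPARGC1B, the paralog of PPARGC1A, had 53.9, 83.6 and 80.8 in silk co-cultures, against 30.5, 11 and 14.9 in LN/PC co-cultures, without overlap (log2 difference 2.00 ± 0.37, limma adjusted p = 0.000741). PRKAA2, a catalytic subunit of AMPK, was higher on silk in co-cultures (1.78 ± 0.23) and in monocultures (1.29 ± 0.23). ESRRG, a nuclear receptor of the same list, went the other way without overlap in either culture type. It had 212, 221 and 206 in silk co-cultures, against 427, 533 and 352 in LN/PC co-cultures. Monocultures had 317, 299 and 259 on silk, against 741, 509 and 663 on LN/PC. In monocultures the 5 lists had 3, 0, 2, 2 and 4 genes called in the order given, where 11.7% of all genes were.

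Of the 8 genes of the list of PPAR targets and lipid droplets, 2 were higher and 1 lower in co-culture on silk, where 3.78% of all genes were called. On LN/PC 3 were higher and 1 lower in co-culture, where 12.5% of all genes were called. The known PPAR targets ANGPTL4 and PDK4 were read across co-culture. ANGPTL4, a secreted inhibitor of lipoprotein lipase, had 1088, 876 and 979.5 normalized counts in silk co-cultures, against 96.9, 248 and 348 in silk monocultures (log2 difference 2.26 ± 0.39, limma adjusted p = 0.00307). On LN/PC it had 733, 614 and 583 in co-cultures, against 21.9, 28.3 and 66.1 in monocultures (log2 difference 4.17 ± 0.39, limma adjusted p = 9.91e-07), and fibroblasts had 190.3, 136 and 154. The co-cultures of LN/PC exceeded the in-silico mixtures by 3.59 ± 0.37 (limma adjusted p = 0.000222). PDK4, which limits glucose oxidation, averaged 65 ± 21 in silk co-cultures and 68.2 ± 20.6 in silk monocultures, with a log2 difference of -0.08 ± 0.39 that was not called. On LN/PC it averaged 42.1 ± 11.4 in co-cultures and 43.2 ± 19.6 in monocultures. HILPDA, of the same list, averaged 626 ± 235 in silk co-cultures and 127 ± 43.1 in silk monocultures. TXNIP was lower in co-cultures, at 927 ± 251 against 4070 ± 747 on silk and 2993 ± 336 against 5379 ± 1766 on LN/PC.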

How the data were processed

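Poly-A RNA was sequenced with a strand-keeping kit from 15 cultures, 3 per group. The deposited table holds log2-scale expression values per gene, made by the authors with Salmon 1.10.3 and DESeq2, per the submitters' processing notes; the sources used here give no genome build, annotation or transform. The values had a floor of 5.54, as a variance-stabilising transform gives, so the transform was inverted to normalized counts and a value at the floor became 0. Over 13121 genes above the floor, median ratios between libraries were then equal (spread 6.27e-09), which the deposited values did not give (0.994 to 1.002). The design had assumed log2(normalized count + 1), so this step was added. Totals were 9078771 to 12662726 normalized counts per library. Whole reads could not be recovered, because only 32.4% to 53.1% of the low values came within 0.1 of whole multiples, so no count model was run.

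Differences were tested on log2(normalized count + 1), which understates changes of low genes, with limma 3.58.1 in R 4.3.3, over genes with at least 10 in at least 3 libraries. The epithelial comparisons used 12 libraries and 14433 genes, and the fibroblast comparison 9 and 14502. The comparison with in-silico mixtures used 14377 genes in 9 profiles. These were 3 LN/PC co-cultures, 3 silk monocultures for the spread and 3 computed mixtures, which are not measured libraries. A gene was called at a Benjamini-Hochberg adjusted p under 0.05. Scripts were tested on simulated data. The genes named were a panel (CPT1A, ACADM, HADHA, ACOX2, EHHADH, CAT, SLC27A2, PPARA, PPARGC1A, PEX11A) and up to 6 called members with the largest difference per direction and a mean of 50 or more in whichever group was higher; other members with values were added after their values were seen. Members and lists were chosen with earlier results of these data known. Promoter sequences are RefSeq GRCh38.p14. Single values of 3 members and some sequences are not reported here, while counts and medians cover all 44. Alternatives were other pseudocounts, no filter, the deposited log2 values, other scalings, a replicate block, fits of the compared libraries alone and each library left out. Replicates with the same number did not deviate together, so numbers were not taken as pairs.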

Additional observations from a re-analysis of the deposited data

Results flagged for a closer look

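PPARGC1A responded differently to co-culture on the 2 membranes. The co-culture difference on silk minus that on LN/PC was 1.85 ± 0.30 on the log2 scale (limma adjusted p = 0.000712). All 3 silk co-cultures exceeded all silk monocultures, and all 3 LN/PC co-cultures were below all LN/PC monocultures. The adjusted p ran from 0.000376 to 0.0027 over the other settings and from 0.000454 to 0.00369 with each library left out. Fibroblast RNA was 13.0% of LN/PC co-cultures and 0.0457% of silk co-cultures, and its part in the difference was not tested in this comparison.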

How the results depend on the processing

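The 35 named gene results reversed in 0 of 247 values under other settings, of which 236 kept their call and 11 lost it. With a library left out, 323 of 372 kept it, 49 lost it and 0 reversed, and 21 results kept it throughout. All 35 were chosen because they were called in these data. Leaving out a library outside the compared groups cannot change the difference itself, only its spread, so part of these values could not reverse. Members called between monocultures of silk and LN/PC numbered 2, against 1 with no filter, 4 with upper quartile scaling, 1 with epithelium-restricted scaling, 1 with only the compared libraries, and 1 to 12 with a library left out. Upper quartile scaling gave 60.6% of all calls there as higher, against 50.4%. Between co-cultures the 17 became 10 to 18 with a library left out. Members called for co-culture on silk numbered 1, against 2 with the deposited log2 values, 2 with epithelium-restricted scaling, 2 with only the compared libraries, and 0 to 2 with a library left out. On LN/PC the 1 became 5 with epithelium-restricted scaling and 1 to 3 with a library left out. The fibroblast count of 21 ran from 17 to 21. Against the mixtures the 1 became 0 with the summed share, and 0 to 1 with a library left out, an alternative chosen after seeing the data. Summed genes gave fibroblast shares of 0.118% for co-cultures on silk, against 20.9% on LN/PC. The cause of these changes was not tested.

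With replicate number as a block, members called were 1 between monocultures of silk and LN/PC and 0 for co-culture on silk. The block lost the calls of ACADS between monocultures (adjusted p = 0.0652), PEX11G between co-cultures (0.0637) and ACADSB for co-culture on silk (0.0538). Same-numbered libraries had correlations of -0.254 to 0.189, with 3 of 30 above 0.1, and libraries of other numbers -0.254 to 0.327. The numbers were therefore not taken as pairs, but low correlations cannot show that same-numbered cultures were handled apart. The highest correlations linked LN/PC monoculture 2 with silk monoculture 1 (0.327) and with LN/PC co-culture 3 (0.317). These 3 libraries had the highest mitochondrial transcript shares of their groups (3.80%, 6.58% and 3.04%), and a shared factor was not tested.

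Over all genes, the compared libraries alone gave 754 calls against 1685 between monocultures of silk and LN/PC, 1174 against 545 for co-culture on silk and 1088 against 1807 on LN/PC. Epithelium-restricted scaling gave 3331 on LN/PC (3186 higher, 145 lower) and shifted the median of all genes by 0.39 there, by 0.14 for co-culture on silk and by -0.25 for the interaction (178 higher, 824 lower). Depth in reads is unknown, so low genes such as SLC27A2 carry wide intervals.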
